A study of Danio rerio with 6 samples.

Results

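The genes described here are the Notch ligands, receptors and Her/Hey effectors of the zebrafish embryo, together with the proteins that process, modify or work beside them. Members were chosen by gene symbol alone: her genes with a number, hes6, hey, the Delta and Jagged ligands, the Notch receptors, mib1, the fringe genes, rbpj, numb and maml. Of 26190 gene IDs in the deposited tables, 49 matched the pattern. The look-alikes *jagn1a* and *jagn1b*, which encode Jagunal proteins of the endoplasmic reticulum and no Notch ligand, were set apart, so that 47 members remained. Of these, 45 passed the filter on low counts. *heyl*, a Hey effector, and *rbpjl*, a relative of the DNA-binding protein Rbpj, were not tested and were listed at no more than 0.339 and 0.0655 TPM in any of the 6 libraries.

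In Notch signalling a Delta or Jagged ligand on one cell binds a Notch receptor on its neighbour. The receptor is then cut and its intracellular part enters the nucleus, where it joins Rbpj and Maml to switch on target genes, above all those of the Her/Hey family of transcriptional repressors. In the neural plate this exchange holds neighbouring cells in a progenitor state while others become neurons, and in the presomitic mesoderm Her proteins that repress their own genes form an oscillator that times the making of somites.

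Cells came from pooled 4-somite embryos of the *Tg(krt4:GFP)* line (allele gz7TG), whose GFP is under the promoter of a keratin gene, *krt4*, and lights up the outermost cell sheet. This sheet is the enveloping layer (EVL), or periderm. Fluorescence-activated sorting gave 3 GFP-positive libraries, labelled periderm, and 3 GFP-negative libraries, labelled non-periderm. The GFP-negative population takes in the rest of the embryo, neural plate and presomitic mesoderm included. The libraries summed to between 40584467 and 49679602 estimated counts, and levels are given as TPM (transcript abundance scaled by transcript length and by library), summed over the transcripts of a gene. Of 10 EVL marker genes, 9 were higher in GFP-positive cells, all but *grhl3*, and the 10 summed to between 4082 and 4339 TPM there against 734 to 831 TPM in GFP-negative cells. *krt4* itself was still at 545 to 636 TPM in the GFP-negative libraries, against 2315 to 2591 TPM. Markers of other tissues were not at 0 in the GFP-positive libraries, and several were higher there. Basal epidermal markers summed to 564 to 645 TPM in GFP-positive against 325 to 355 TPM in GFP-negative cells (2 of 4 tested called). Notochord markers summed to 33.0 to 34.6 TPM against 25.6 to 27.2 TPM (2 of 3). Ionocyte markers summed to 41.9 to 42.7 TPM against 31.7 to 34.2 TPM (2 of 3). Endoderm markers overlapped between the populations, at 30.3 to 35.3 TPM against 26.4 to 30.5 TPM, with 1 of 4 called. For comparison, calls by the rule given below made up 24.1% of all genes towards GFP-positive and 25.0% towards GFP-negative cells. The endoderm share, 25%, lay near the first of these. Of 3 listed hatching gland genes 1 was found, *klf17*, at 77.3 to 83.3 TPM against 30.3 to 30.9 TPM. The paper also names *klf17* among genes expressed in periderm, so its level does not mark another tissue alone. Blood and endothelial markers summed to 321 to 331 TPM against 343 to 368 TPM, with 2 of 6 called in each direction. Neural markers summed to 659 to 702 TPM there against 1169 to 1220 TPM in GFP-negative cells, and 8 of the 9 found were higher in GFP-negative cells. Presomitic and paraxial markers summed to 431 to 434 TPM against 438 to 450 TPM, with 3 of 10 higher in GFP-negative and 4 in GFP-positive cells. The part of these marker levels in the results below was not tested. In bulk libraries such as these, fewer cells of a type and less RNA per cell cannot be told apart.

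Notch pathway members were mostly higher in GFP-negative cells. Calls required an edgeR quasi-likelihood adjusted p under 0.05 (Benjamini-Hochberg, 20944 genes) and more than 1 TPM on average in whichever population was higher. By this rule 25 of the 45 members tested, or 55.6%, were higher in GFP-negative cells, where 25.0% of all genes tested were called in that direction. Only 4 members, or 8.89%, were higher in GFP-positive cells, against 24.1% of all genes. These 4 were *her6*, *her7*, *her11* and *dlc*. The shares of all genes take in scarce genes that the TPM limit keeps from being called. Among genes above 1 TPM, split by transcript length, 17.3% to 40.6% of a class were higher in GFP-negative cells. The share was highest from 3000 to 4000 bases. In the other direction it ran from 21.3% to 34.7%. In 27 members every GFP-negative library lay above every GFP-positive one in TPM, and in 3 the reverse held, against 34.3% and 24.2% of all genes. The median log2 fold change of the members, GFP-positive over GFP-negative as throughout, was -0.38, whereas that of all genes was 0.02. Fold changes were fitted to estimated counts, which are scaled otherwise than TPM and not corrected for transcript length. They can therefore differ from the ratio of the TPM values printed beside them, also in members with 1 transcript such as *her3*. Most differences were under 2-fold. The members called at 2-fold or more were *her4.3*, *her4.4* and *her4.5*, all higher in GFP-negative cells, against 3.93% of all genes in that direction and 8.45% in the other.

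**Figure D1:**
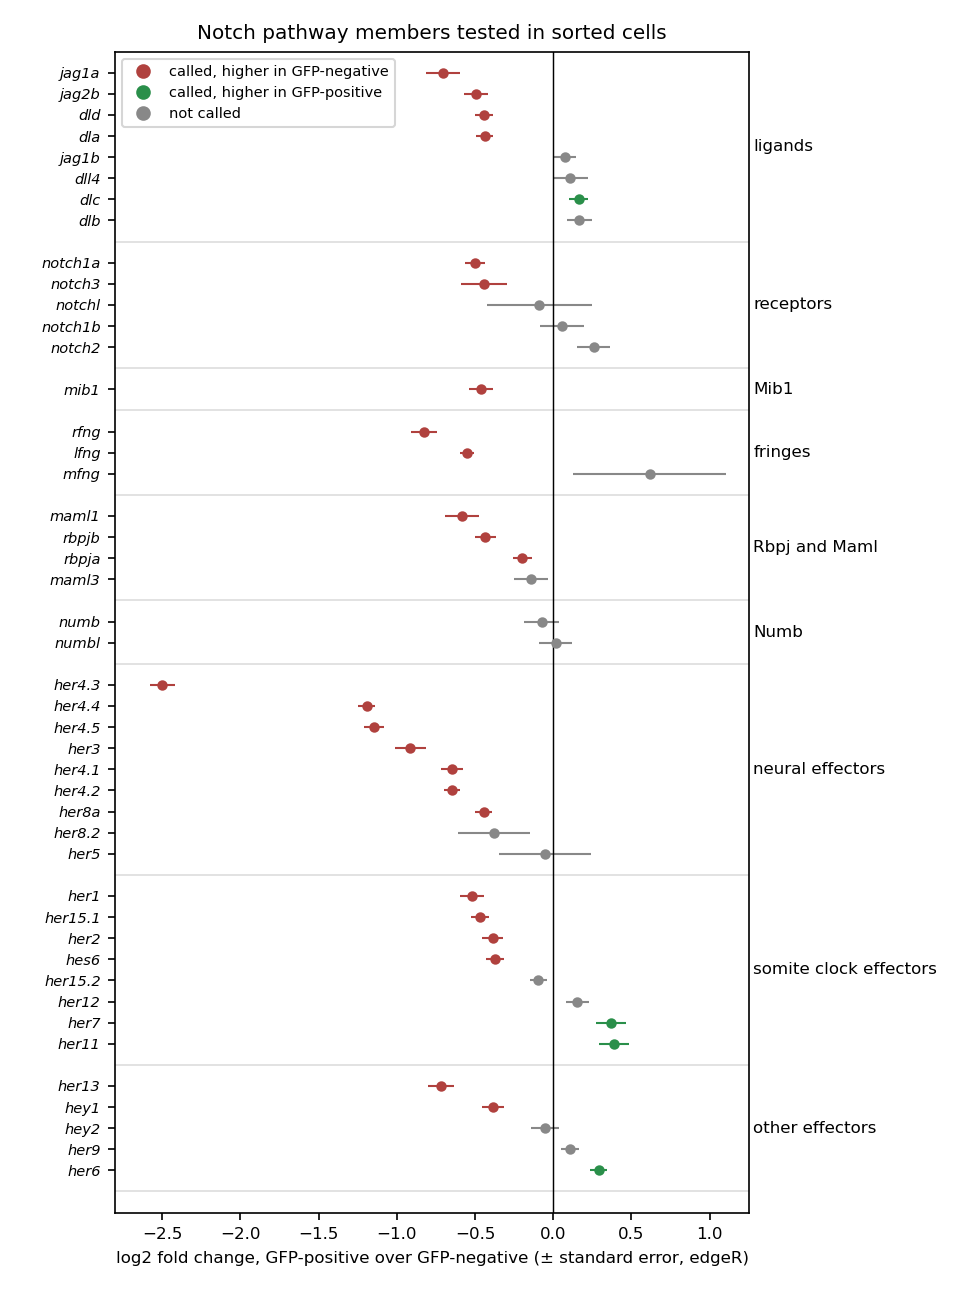
Log2 fold change (GFP-positive over GFP-negative, x axis) of the 45 members tested, with bars of ± 1 standard error from edgeR, grouped by role. Red points were called as higher in GFP-negative cells (25 members), green points as higher in GFP-positive cells (4 members) and grey points were not called (16 members), and *her4.3*, *her4.4* and *her4.5* lie farthest to the left.

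Among the ligands, *dla*, *dld*, *jag1a* and *jag2b* were higher in GFP-negative cells, 4 of 8, while *dlc* was the only one called in the other direction. These are 50% and 12.5%, against 25.0% and 24.1% of all genes. *dla* encodes a Delta ligand of the neural plate, where it is found in cells that are becoming neurons. It stood at 50.3, 54.0 and 65.1 TPM in the GFP-positive libraries and at 86.6, 90.8 and 97.2 TPM in the GFP-negative libraries. The populations did not overlap, and the log2 fold change on counts was -0.44 ± 0.06 (SE, n = 3 per population, edgeR adjusted p = 1.41e-05). With limma on log2(TPM + 1) it was -0.69. *dld*, a Delta ligand of both the neural plate and the segmentation clock, was measured at 38.6, 39.5 and 44.7 TPM against 60.1, 59.3 and 61.2 TPM. Its log2 fold change on counts was the same to 2 decimals, -0.44 ± 0.06 (SE, edgeR adjusted p = 1.46e-05). *jag1a* and *jag2b*, of the Jagged class of Notch ligands, differed by -0.70 ± 0.11 and -0.49 ± 0.08 (log2, SE). *jag1a* was the scarcer, at 2.80 to 5.06 TPM against 7.47 to 8.28 TPM, and *jag2b* ranged from 36.1 to 47.5 TPM against 54.3 to 65.2 TPM.

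*dlc*, which acts with *dld* in the segmentation clock, was called in the opposite direction. Its levels were 23.9, 26.6 and 26.5 TPM in GFP-positive and 23.4, 26.2 and 23.2 TPM in GFP-negative libraries, so that the populations overlapped. Its log2 fold change of 0.16 ± 0.06 (SE) passed the test narrowly (edgeR adjusted p = 0.0402). The call was lost without GFP-negative replicate 1 (edgeR adjusted p = 0.149), GFP-negative replicate 3 (0.143), GFP-positive replicate 1 (0.0693) or GFP-positive replicate 2 (0.0989), and in DESeq2 (0.0652). It was also lost with RLE factors, with a replicate block, and with limma on either log2 TPM scale. The ratio of *dla* to *dlc* was 2.03 to 2.46 in GFP-positive and 3.46 to 4.2 in GFP-negative libraries (exact permutation test, two-sided p = 0.1, the smallest that 3 against 3 libraries allow). *dla* alone separated the populations, and *dlc* stayed between 23.2 and 26.6 TPM, so the ratio had to separate them as well. Its test thus adds no evidence.

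The remaining 3 ligands were not called. *dlb*, a Delta ligand expressed beside *dla* in early neurons, stood at 15.6 to 16.5 TPM against 14.0 to 16.6 TPM (log2 fold change 0.17 ± 0.08, SE, edgeR adjusted p = 0.0951), and was called only without GFP-negative replicate 1 (edgeR adjusted p = 0.0262). *dll4*, the Delta ligand of the endothelium, lay between 3.91 and 5.28 TPM in all 6 libraries, and *jag1b* between 12.6 and 15.8 TPM. The populations overlapped in all 3 genes. The log2 fold changes of *dll4* and *jag1b* were 0.11 ± 0.11 and 0.08 ± 0.07 (SE), and both turned negative when TPM values were tested with limma.

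Of the receptors, *notch1a* was the most abundant and made up 68.3% to 74.3% of the summed TPM of the 4 receptor genes in GFP-positive and 73.5% to 75.4% in GFP-negative libraries. These shares overlapped (exact permutation test, two-sided p = 0.2). *notch1a*, the receptor of the segmentation clock and the neural plate, stood at 52.3, 58.1 and 71.7 TPM against 89.3, 102.2 and 93.8 TPM. The populations did not overlap and its log2 fold change was -0.50 ± 0.07 (SE, edgeR adjusted p = 2.1e-05). *notch3*, a receptor of neural progenitors, was at 10.9, 14.7 and 21.9 TPM in GFP-positive and at 22.8, 24.6 and 22.1 TPM in GFP-negative libraries. GFP-positive replicate 3 thus nearly reached the GFP-negative level while replicate 1 held less than the other libraries. The log2 fold change was -0.44 ± 0.15 (SE, edgeR adjusted p = 0.0208), and the call did not hold without GFP-negative replicate 1 (edgeR adjusted p = 0.0511) or GFP-positive replicate 2 (0.0874) or in DESeq2 (0.135).

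*notch2* and *notch1b* were not called. *notch2* was measured at 5.58, 6.34 and 8.56 TPM against 7.30, 6.91 and 6.04 TPM, and the populations overlapped. Its log2 fold change of 0.26 ± 0.10 (SE, edgeR adjusted p = 0.0506) lay at the threshold. It was called as higher in GFP-positive cells without GFP-negative replicate 1 (edgeR adjusted p = 0.0463) or GFP-positive replicate 1 (0.00419), without the filter on low counts (0.0349) and in DESeq2 (0.0466). *notch1b*, the other Notch1 paralog, was at 1.64, 2.15 and 2.88 TPM against 2.07, 2.46 and 2.44 TPM (log2 fold change 0.06 ± 0.14, SE). The receptor-like *notchl* lay below 0.74 TPM in every library. The ratio of *notch1a* to *notch2* was 8.38 to 9.38 in GFP-positive and 12.2 to 15.5 in GFP-negative libraries, without overlap (exact permutation test, two-sided p = 0.1, the smallest possible).

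**Figure D2:**
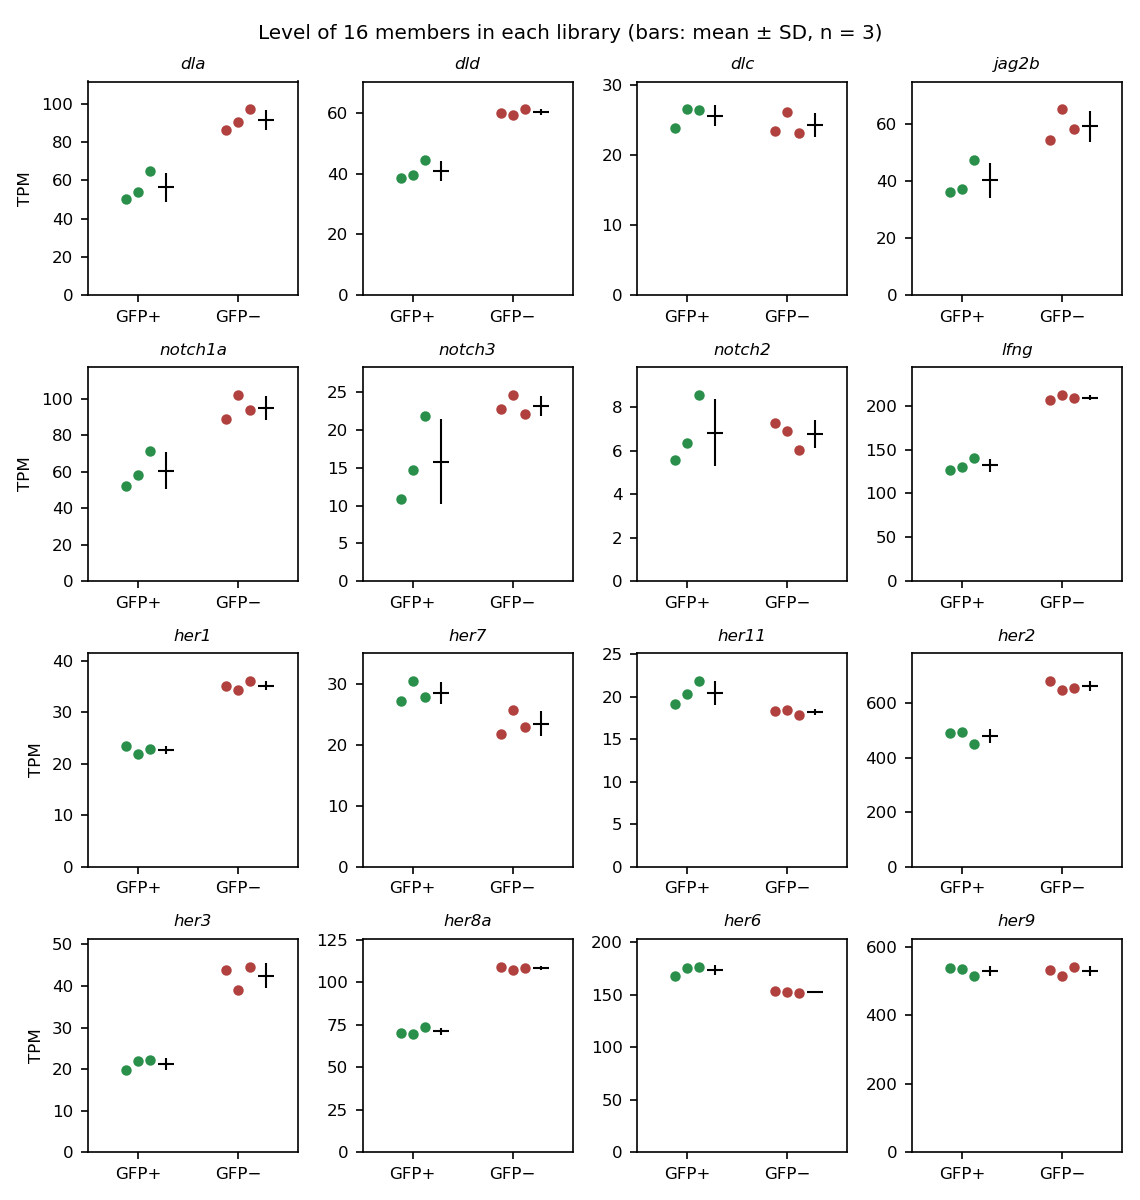
TPM (y axis, from 0) of 16 members in each of the 3 GFP-positive (green, left) and 3 GFP-negative (red, right) libraries, with the mean ± SD (n = 3) beside the points. In *dla*, *dld*, *notch1a* and *lfng* all GFP-negative libraries lie above all GFP-positive ones, whereas *her6*, *her7* and *her11* show the reverse order and *dlc*, *notch2* and *her9* overlap.

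Receptors and Jagged ligands have long transcripts, and libraries differed in how long genes were recovered. Among all genes of 6000 to 10000 bases, the median log2 TPM deviated from the mean of the population by -0.18, -0.04 and 0.22 in GFP-positive replicates 1, 2 and 3, and by -0.02, 0.08 and -0.06 in GFP-negative replicates 1, 2 and 3. Among genes under 1000 bases no library deviated by more than 0.05. The 3 GFP-positive values of *notch1a*, *notch3*, *notch2* and *jag1a* follow the same order, lowest in replicate 1 and highest in replicate 3, and the part of transcript length in their spread was not tested. The difference between the populations also changed with length. The median log2 fold change of all genes was 0.17 under 1000 bases, 0.03 from 1000 to 2000 bases, -0.14 from 4000 to 6000 bases and -0.08 from 6000 to 10000 bases. Set beside the median of their own length class, 30 of the 43 members above 1 TPM lay below it. This comparison by length was chosen after the data were seen.

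**Figure D3:**
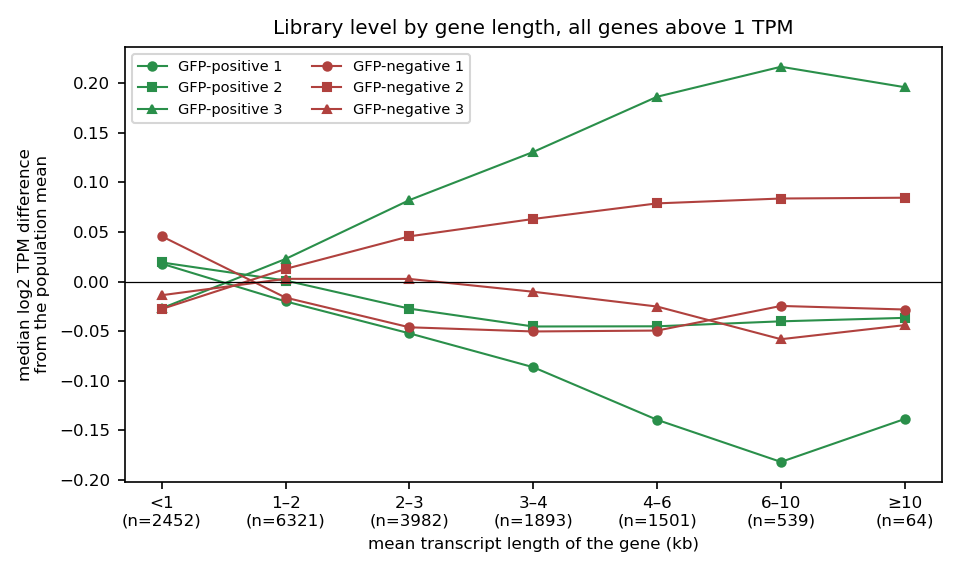
Median difference of log2 TPM from the mean of the same population (y axis) for all genes above 1 TPM, by mean transcript length of the gene (x axis, kb, with the number of genes in each class), with one line per library. GFP-positive replicate 3 reaches 0.22 and replicate 1 falls to -0.18 in the class of 6 to 10 kb, whereas all libraries lie within 0.05 of 0 below 1 kb.

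The ubiquitin ligase Mind bomb 1, encoded by *mib1*, drives the uptake of Delta that is needed to activate the receptor. *mib1* was at 65.6, 72.8 and 92.8 TPM in GFP-positive and at 110.0, 120.0 and 114.4 TPM in GFP-negative libraries, without overlap (log2 fold change -0.46 ± 0.08, SE, edgeR adjusted p = 0.000174). The fringe glycosyltransferases add sugars to the Notch receptor that change which ligands it answers to. *lfng* was the most abundant, at 126.4, 130 and 140.8 TPM against 206.7, 212.4 and 209.0 TPM, and *rfng* stood at 5.67, 5.79 and 6.54 TPM against 10.7, 11.3 and 12.7 TPM. Both were called as higher in GFP-negative cells, with log2 fold changes of -0.55 ± 0.05 and -0.83 ± 0.09 (SE). The third fringe, *mfng*, was at 0.26, 0.42 and 0.62 TPM against 0.37, 0.38 and 0.15 TPM, too scarce for its log2 fold change of 0.62 ± 0.49 (SE) to be told from 0.

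Of the nuclear partners of the cleaved receptor, *rbpja*, *rbpjb* and *maml1* were higher in GFP-negative cells. *rbpja* and *rbpjb* encode the DNA-binding protein of the complex. *rbpjb* was at 13.8, 14.1 and 16.3 TPM against 21.6, 21.9 and 21.2 TPM (log2 fold change -0.43 ± 0.07, SE, edgeR adjusted p = 8.47e-05). *rbpja* was at 21.1, 22.3 and 26.1 TPM against 28.3, 30.2 and 28.0 TPM, with a smaller log2 fold change of -0.20 ± 0.06 (SE, edgeR adjusted p = 0.0149). Its call was lost without GFP-negative replicate 2 (edgeR adjusted p = 0.0531), GFP-positive replicate 1 (0.0522) or GFP-positive replicate 2 (0.0713). The coactivator *maml1* differed by -0.58 ± 0.11 (log2, SE), at 2.68 to 3.72 TPM against 4.48 to 5.72 TPM, while its paralog *maml3* overlapped between the populations and was not called (-0.14 ± 0.11, SE). Numb proteins oppose Notch in the cell that inherits them. *numb* stood at 1.85, 2 and 2.53 TPM against 2.42, 2.83 and 2.78 TPM, and *numbl* at 7.46, 7.73 and 9.71 TPM against 9.50, 9.15 and 7.97 TPM. Neither was called, with log2 fold changes of -0.07 ± 0.11 and 0.02 ± 0.11 (SE).

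The her4 genes are direct Notch targets of the neural plate related to mammalian Hes5. Among them, *her4.3*, *her4.4* and *her4.5* held the largest differences of all members. The files list 5 her4 gene IDs, of which 2 carry the symbol *her4.2*. The gene name table gives one of these as *her4.5*, the name used here. *her4.3* was at 8.80, 8.51 and 9.49 TPM in GFP-positive and at 53.0, 52.5 and 57.9 TPM in GFP-negative libraries, a log2 fold change of -2.50 ± 0.08 (SE, edgeR adjusted p = 4.81e-12), or 5.65-fold. No other member differed by as much. *her4.4* was at 144.4, 146.0 and 152.3 TPM against 381.8, 420.7 and 447.4 TPM (-1.19 ± 0.05, SE), and *her4.5* at 54.0, 51.2 and 51.5 TPM against 121.9, 129.1 and 123.5 TPM (-1.14 ± 0.06, SE). *her4.2*, the most abundant of the 5 in GFP-positive cells, stood at 248.3, 243.8 and 243.3 TPM against 398.4, 425.3 and 422.1 TPM (-0.65 ± 0.05, SE). *her4.1* differed by the same amount to 2 decimals, at 108.1 to 126.8 TPM against 174.7 to 204.3 TPM (-0.65 ± 0.07, SE). The populations were apart in all 5.

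Because close paralogs can exchange reads in the estimated counts, the division among the 5 her4 IDs is less certain than their sum, and the spans of *her4.1* and *her4.2* overlap in the RefSeq annotation. Summed, her4 stood at 570, 558 and 583 TPM in GFP-positive and at 1130, 1232 and 1255 TPM in GFP-negative libraries (log2 fold change -0.91 ± 0.05, SE, edgeR adjusted p = 1.15e-09, 1.88-fold in counts). With limma on log2(TPM + 1) the summed her4 differed by -1.08. The shares of single genes in this sum were also apart. *her4.3* made up 1.53% to 1.63% of the sum in GFP-positive and 4.26% to 4.69% in GFP-negative libraries, *her4.4* 25.3% to 26.2% against 33.8% to 35.6%, and *her4.2* 41.7% to 43.7% against 33.6% to 35.3%. None of these 3 shares overlapped (exact permutation test, two-sided p = 0.1 for each, the smallest possible). The levels of the genes and of the sum already fixed this order, so the tests add no evidence. In the RefSeq gene order the 5 her4 genes lie side by side with no other coding gene between them, and *her12* is the next coding gene beside *her4.2*. *her12*, an oscillating gene of the presomitic mesoderm, was at 199.6, 195.8 and 179.5 TPM against 184.2, 180.0 and 191.3 TPM, with overlapping populations. Its log2 fold change of 0.15 ± 0.07 (SE, edgeR adjusted p = 0.0933) was called only without GFP-positive replicate 3 (0.24, edgeR adjusted p = 0.00086).

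**Figure D4:**
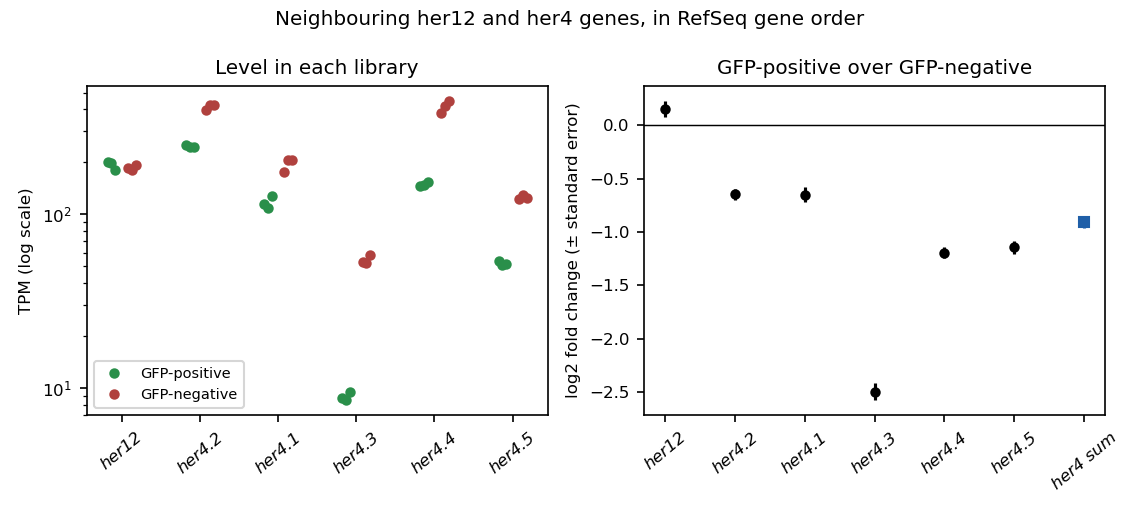
Left, TPM on a log axis of *her12* and the 5 her4 gene IDs, in RefSeq gene order, in the 3 GFP-positive (green) and 3 GFP-negative (red) libraries. Right, log2 fold change ± standard error of each gene (black circles) and of the summed her4 counts (blue square), from 0.15 for *her12* to -2.50 for *her4.3*, with the sum at -0.91.

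Among the other neural effectors, *her3* and *her8a* were higher in GFP-negative cells and *her8.2* and *her5* were not called. *her3*, which in zebrafish is known as a Her gene that Notch represses, was at 19.7, 22.0 and 22.1 TPM against 43.7, 39.1 and 44.6 TPM. Its log2 fold change was -0.91 ± 0.10 (SE, edgeR adjusted p = 2.83e-06), in the same direction as the her4 genes that Notch activates. *her8a*, a repressor of neurogenesis, ranged from 69.7 to 73.6 TPM against 107.0 to 109.1 TPM (-0.44 ± 0.06, SE). *her8.2* was at 2.50, 2.63 and 2.73 TPM against 3.89, 4.19 and 2.84 TPM, apart by a narrow margin, and missed the threshold (-0.38 ± 0.23, SE, edgeR adjusted p = 0.183). The sum of *her8a* and *her8.2*, nearly all of it *her8a*, differed by -0.45 ± 0.06 (log2, SE). *her5*, which keeps the border of midbrain and hindbrain free of neurons, stayed between 1.14 and 1.88 TPM in all libraries (-0.05 ± 0.29, SE). With the ligands *dla* and *dlb*, 8 of 11 neural members, or 72.7%, were higher in GFP-negative cells and 0 in the other population. The shares of all genes were 25.0% and 24.1%. The median log2 fold change of the neural members was -0.65. These values depend on the choice of class, which was made with earlier results of these data known. *her9*, which marks the regions between proneural domains, and *her6* were placed outside the neural class. Without the her4 IDs, 3 of 6, or 50%, were higher in GFP-negative cells, with a median of -0.41. The neural members summed to 724 to 765 TPM in GFP-positive and 1392 to 1524 TPM in GFP-negative libraries. The neural markers above had a median log2 fold change of -0.75, and their part in the level of the neural members was not tested.

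The members of the segmentation clock were called in both directions. Of 10, 5 were called towards GFP-negative cells (*her1*, *her2*, *her15.1*, *hes6* and *dld*), 3 towards GFP-positive cells (*her7*, *her11* and *dlc*), and *her12* and *her15.2* were not called, with a median log2 fold change of -0.23. These are 50% and 30%, against 25.0% and 24.1% of all genes, so that the share towards GFP-positive cells lay near that of all genes, and the call of *dlc* was not stable. *her2*, expressed in the neural plate as well as in the presomitic mesoderm, was the most abundant clock member, at 492.6, 496.1 and 452.3 TPM against 682.6, 648.9 and 656.8 TPM. The populations were apart, with a log2 fold change of -0.39 ± 0.07 (SE, edgeR adjusted p = 0.000198). *hes6*, whose protein pairs with the clock repressors, ranged from 96.4 to 107.6 TPM against 137.2 to 147.5 TPM (-0.37 ± 0.06, SE). Together the 10 clock members summed to 1414 to 1462 TPM in GFP-positive and 1837 to 1891 TPM in GFP-negative libraries. The ratio of the neural sum to the clock sum was 0.499 to 0.541 against 0.757 to 0.806, without overlap (exact permutation test, two-sided p = 0.1, the smallest possible). The ranges of the sums already kept the ratio apart, so its test adds no evidence. Several clock members are also known from neural tissue, so this ratio does not set neural plate against presomitic mesoderm alone.

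*her1* and *her7* are the core repressors of the zebrafish clock and neighbours in the RefSeq gene order, with no coding gene between them. They were called in opposite directions. *her1* was at 23.4, 21.9 and 22.8 TPM in GFP-positive and at 35.2, 34.2 and 36.1 TPM in GFP-negative libraries (log2 fold change -0.52 ± 0.08, SE, edgeR adjusted p = 4.51e-05). *her7* was at 27.2, 30.4 and 27.7 TPM against 21.7, 25.7 and 22.9 TPM (0.37 ± 0.10, SE, edgeR adjusted p = 0.00505). The populations did not overlap in either gene. In GFP-positive libraries *her7* was therefore the more abundant, with a ratio of *her1* to *her7* of 0.863, 0.718 and 0.822, and in GFP-negative libraries *her1* was, with ratios of 1.62, 1.33 and 1.58 (exact permutation test, two-sided p = 0.1, the smallest possible). Since each gene separated the populations, in opposite directions, the ratio had to separate them as well. The test of the ratio thus adds no evidence.

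*her11*, which is expressed in the presomitic mesoderm and at the border of midbrain and hindbrain, was at 19.1, 20.3 and 21.9 TPM against 18.3, 18.4 and 17.8 TPM. The populations were apart by less than 1 TPM, and the log2 fold change was 0.39 ± 0.09 (SE, edgeR adjusted p = 0.00308). With limma on log2(TPM + 1) it was 0.16 and no longer called (limma adjusted p = 0.116). A shorter *her11* transcript of 912 bases was listed in GFP-negative libraries only (given below). The part of transcript length in the call of *her11* was not tested. Its neighbour *her5* was far scarcer, and the ratio of *her5* to *her11* overlapped between the populations (exact permutation test, two-sided p = 0.3).

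*her15.1* and *her15.2*, paralogous genes placed in the clock class that lie beside *her2*, share a symbol in the files and are separated here by gene ID. *her15.1* was at 308.9, 297.4 and 300.0 TPM against 422.6, 450.4 and 474.9 TPM (-0.47 ± 0.06, SE, edgeR adjusted p = 1.21e-05). *her15.2* was at 232.1, 223.6 and 230.7 TPM against 251.8, 271.7 and 263.0 TPM (-0.09 ± 0.06, SE, edgeR adjusted p = 0.169). Though the TPM values of *her15.2* did not overlap, its difference was called only in limma on TPM (-0.20 on log2(TPM + 1), limma adjusted p = 0.00638). The ratio of *her15.1* to *her15.2* was 1.30 to 1.33 in GFP-positive and 1.66 to 1.81 in GFP-negative libraries (exact permutation test, two-sided p = 0.1, the smallest possible). The levels of the 2 genes already kept this ratio apart, so its test adds no evidence. Reads may be divided between the 2 with error, and the sum, at 541, 521 and 531 TPM against 674, 722 and 738 TPM, differed by -0.33 ± 0.06 (log2, SE, edgeR adjusted p = 0.000149). The ratio of the summed her4 to the summed her15 was 1.05, 1.07 and 1.1 against 1.68 to 1.71, without overlap (exact permutation test, two-sided p = 0.1, the smallest possible). Here too the levels of the sums fixed the order, and the test adds no evidence.

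Of the effectors outside both classes, *her13* and *hey1* were higher in GFP-negative and *her6* in GFP-positive cells. *her9*, a Hes4-related repressor that in zebrafish marks the regions between proneural domains, was the most abundant, at 538.8, 535.5 and 512.8 TPM against 530.9, 514.2 and 541.6 TPM. The populations overlapped, and its log2 fold change of 0.11 ± 0.06 (SE, edgeR adjusted p = 0.134) was called only without GFP-positive replicate 3 (0.17, edgeR adjusted p = 0.00356). *her6*, related to mammalian Hes1, was at 168.2, 175.6 and 176.8 TPM in GFP-positive and at 153.6, 152.6 and 152.0 TPM in GFP-negative libraries, without overlap (0.29 ± 0.06, SE, edgeR adjusted p = 0.00048). *her13* was lower in GFP-positive cells, at 16.8, 19.4 and 20.7 TPM against 32.1, 36.4 and 32.2 TPM (-0.72 ± 0.08, SE, edgeR adjusted p = 5.23e-06). *hey1*, a Hey effector, ranged from 34.5 to 42.1 TPM against 53.9 to 57.8 TPM (-0.38 ± 0.07, SE), while *hey2*, known for its role in the making of arteries, overlapped at 19.6 to 23.4 TPM against 22.5 to 25.4 TPM (-0.05 ± 0.09, SE). The 9 neural effectors had a median log2 fold change of -0.65, the 8 clock effectors of -0.23 and the 5 other effectors of -0.05. These medians depend on the class in which each gene was placed.

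For 25 members the files list several transcripts. Tested one by one, 30 of 75 member transcripts were higher in GFP-negative cells (16.3% of all transcripts were) and 5 in GFP-positive cells (16.2% of all). The split among transcripts of a gene is an estimate of the quantification, and this comparison was chosen after the data were seen. *notch1a* has 2 transcripts above 0 of similar length. ENSDART00000160208 was level at 26.7 to 29.4 TPM in all 6 libraries. ENSDART00000168930 stood at 23.8, 30.8 and 45.0 TPM against 62.0, 72.7 and 65.8 TPM (log2 fold change -0.88 ± 0.18, SE, edgeR adjusted p = 0.00945), so that the difference in *notch1a* lay in this one. Likewise the longest *dla* transcript, ENSDART00000012104, was at 30.0 to 37.3 TPM against 35.6 to 38.1 TPM and was not called (0.03 ± 0.11, SE). Both shorter *dla* transcripts were higher in GFP-negative cells. ENSDART00000126339 was at 7.62, 9.56 and 20.7 TPM against 28.5, 31.4 and 30.6 TPM (-1.14 ± 0.31, SE, edgeR adjusted p = 0.0284). ENSDART00000006180 was at 5.35, 10.3 and 14.4 TPM against 22.15, 23.74 and 28.56 TPM (-1.19 ± 0.30, SE, edgeR adjusted p = 0.0204). Of the *mib1* transcripts, ENSDART00000163507 was at 10.4, 16 and 25.4 TPM in GFP-positive and 30.5, 40.5 and 39.7 TPM in GFP-negative libraries (-0.97 ± 0.27, SE, edgeR adjusted p = 0.03), and ENSDART00000163737 overlapped at 22.3 to 26.5 TPM. The difference in *mib1* did not lie in one transcript. The longest, ENSDART00000165634 (-0.26 ± 0.06, SE, edgeR adjusted p = 0.0162), and the scarcer ENSDART00000171170 (-0.80 ± 0.18, SE, edgeR adjusted p = 0.0127) were also higher in GFP-negative cells.

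*her11* and *rfng* had transcripts called in both directions. For *her11*, ENSDART00000126216 was listed at 0 in all GFP-positive libraries and at 4.34, 5.24 and 4.82 TPM in GFP-negative ones, from 90, 93 and 95 estimated counts. ENSDART00000026907 was at 19.1, 20.3 and 21.9 TPM against 14.0, 13.1 and 13.0 TPM (0.73 ± 0.10, SE, edgeR adjusted p = 0.00144). In *rfng*, which was higher in GFP-negative cells as a gene, ENSDART00000126315 was at 0.59, 0.12 and 1.61 TPM against 6.61, 7.08 and 9.87 TPM (-3.23 ± 0.70, SE, edgeR adjusted p = 0.0115), and ENSDART00000002867 went the other way at 5.08, 5.66 and 4.93 TPM against 4.09, 4.21 and 2.81 TPM (0.64 ± 0.17, SE, edgeR adjusted p = 0.027). *her4.4* was lower in GFP-positive cells in both its transcripts, ENSDART00000161321 by more (-1.74 ± 0.10, SE) than ENSDART00000079265 (-0.97 ± 0.05, SE). For *her12* the split was unstable within each population: ENSDART00000112929 ranged from 0.55 to 29.2 TPM and from 0.19 to 41.6 TPM, while the sum of the gene stayed between 179.5 and 199.6 TPM.

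**Figure D5:**
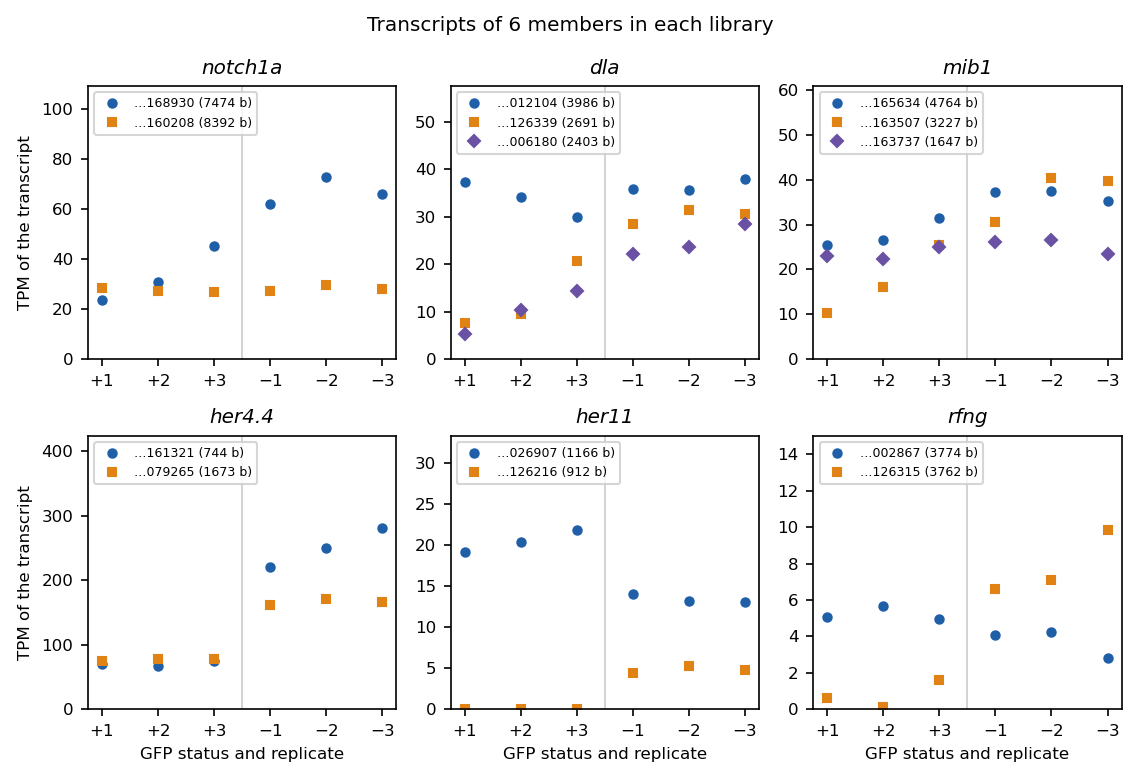
TPM (y axis, from 0) of the most abundant transcripts of 6 members in GFP-positive replicates 1 to 3 (left of the line) and GFP-negative replicates 1 to 3 (right), with the end of the transcript ID and the length in bases in the key. One *notch1a* transcript stays at 26.7 to 29.4 TPM while the other separates the populations, both *her4.4* transcripts separate them, and in *her11* and *rfng* the transcripts go in opposite directions.

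Of the pathway's other genes (receptor cleavage, receptor glycosylation, ubiquitin ligases, feedback inhibitors, corepressors and coactivators), 34 of 37 listed were found. GFP-negative cells held more of 11 and GFP-positive cells of 7, and 16 were not called, or 32.4% and 20.6%, against 25.0% and 24.1% of all genes, with a median log2 fold change of -0.06. Both shares lay near those of all genes, and the genes below are given for their values. The 11 included the corepressors *hdac1*, *ctbp1*, *ctbp2a* and *tle3a*, the coactivator acetyltransferases *ep300b* and *kat2a*, and the protease *adam10b*, which cuts the activated receptor. *adam10b* was at 23.9 to 27.9 TPM against 45.2 to 47.9 TPM (-0.73 ± 0.07, SE), and *kat2a* at 33.2 to 38.3 TPM against 65.7 to 72.6 TPM (-1.03 ± 0.06, SE). The 7 included *adam17a* and *adam17b*, related proteases, and the glycosyltransferases *pofut2* and *poglut1*. The ubiquitin ligases and Deltex proteins went both ways. *itcha* was 3.08-fold higher in GFP-positive cells, at 0.71 to 1.48 TPM against 0.24 to 0.60 TPM. *neurl1aa* (0.34 ± 0.11, SE) and *neurl1ab* (0.74 ± 0.27, SE) were called in the same direction, with overlapping populations in both. *neurl1ab* and *itcha* averaged 1.004 and 1.02 TPM in GFP-positive cells, just above the TPM limit. *itchb*, the paralog of *itcha*, was 2.35-fold lower in GFP-positive cells, at 1.90 to 2.58 TPM against 5.39 to 6.09 TPM, and *dtx2* (-0.49 ± 0.08, SE) and *dtx4* (-1.08 ± 0.10, SE) were also lower. The Rbpj-binding coregulator *snw1* differed by -0.16 ± 0.06 (SE). Without GFP-negative replicate 3 the count of 7 fell to 4. The Notch-induced feedback inhibitors *nrarpa* (0.05 ± 0.05, SE) and *nrarpb* (-0.02 ± 0.08, SE) were not called. *nrarpa* stood at 293 to 330 TPM in GFP-positive and 307 to 334 TPM in GFP-negative libraries. Outside the symbol pattern, *jag2a* and *mib2*, listed under other symbols in the files, were both higher in GFP-negative cells (-0.71 ± 0.19 and -1.05 ± 0.34, SE).

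Her proteins repress proneural genes, which set cells on the path to neurons. Of 13 gene IDs of proneural and neuronal genes, GFP-negative cells held more of 2 and GFP-positive cells of 4, or 15.4% and 30.8%, against 25.0% and 24.1% of all genes, so the values are given as a description. *ascl1a*, a proneural factor, was at 11.1 to 11.9 TPM against 15.4 to 16.8 TPM (-0.38 ± 0.08, SE), and the neuronal RNA-binding protein gene *elavl3* at 172.1 to 213.0 TPM against 269.5 to 282.1 TPM (-0.23 ± 0.05, SE). The 4 others were *neurod4* (0.63 ± 0.10, SE), *onecut1* (0.43 ± 0.11, SE), *isl1* (0.82 ± 0.09, SE) and *elavl4*, which reached 7.99, 9.29 and 10.4 TPM in GFP-positive against 4.96, 4.03 and 2.95 TPM in GFP-negative libraries (2.67-fold). *insm1a* (0.27 ± 0.11, SE, edgeR adjusted p = 0.0632) and *ebf2* (0.15 ± 0.07, SE, edgeR adjusted p = 0.065) were not called. The scarce *atoh1a* had the largest difference of the list (-3.40 ± 0.71, SE, edgeR adjusted p = 0.00105). At 0 to 0.127 TPM against 0.432 to 1.005 TPM, it stayed under the TPM limit and was not called. *neurog1*, the main proneural gene of the early neural plate, overlapped at 11.8 to 13.8 TPM against 13.6 to 15.3 TPM (-0.07 ± 0.11, SE).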

How the data were processed

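RNA-seq was made by the authors from FACS-sorted cells with the SMART-Seq v4 and Nextera XT kits, in 3 biological replicates per population. Per the labels and methods, reads were trimmed with Trimmomatic (version 0.35 in the submitters' processing notes) and assigned to zv10 (danRer10) cDNA with kallisto 0.41, which the authors ran at default settings. The annotation release is not given in the sources used here. The deposited library tables give estimated counts and TPM of 51286 transcripts, and TPM is scaled by the authors' kallisto run to transcript length and library. The deposited series table repeats the TPM values (100% identical) and adds effects, p-values and q-values of the authors' own sleuth comparison, which were not used.

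Estimated counts, 57.85% of them not whole, were summed by gene ID, rounded, and compared by edgeR 4.0.16 (R 4.3.3, TMM, filterByExpr, quasi-likelihood F test, all 6 libraries, no covariate, Benjamini-Hochberg over 20944 genes). edgeR's common biological coefficient of variation came to 0.0952. The absolute log2 fold change over the root of F gave its standard error. A floor of 3 counts corresponded to 0.0604 to 0.0739 CPM, and such floors cover counting error only. Family sums replaced the gene IDs of her4, her15 or her8 by 1 row. Ratios of TPM were compared by exact permutation tests. The procedure was tested on simulated counts. Members, roles and lists were chosen with earlier results of these data known. Every member was named or counted. Values of each library were printed for the 2 most abundant members of each role group, for called members with a log2 fold change of 1 or more in size, and for members going against most of their role group.

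Each library was left out once, and other alternatives were limma 3.58.1 on log2(TPM + 1) and log2(TPM + 0.1), an adjusted p below 0.01, TPM limits of none or 5, a replicate block, RLE factors or plain library sizes, no low-count filter, DESeq2 1.42.0, and single gene IDs for the family sums. Of the 26190 gene IDs, 22789 were matched to the gene name table, all 47 members among them. The gene order is that of RefSeq, a later assembly, so no coordinates are given. No sequences were printed. One gene of the list of other pathway genes is not reported here, other than in the counts.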

Additional observations from a re-analysis of the deposited data

How the results depend on the processing

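The counts of members, neural members and clock members called as higher in GFP-negative cells kept within 1.5 times their value under every alternative run. The summed her4, her15 and her8 did so under every alternative that kept the sum. Members called as higher in GFP-positive cells fell from 4 to 2 with limma on either log2 TPM scale, and ranged from 3 to 6 with one library left out. The count of 6 came without GFP-positive replicate 3. Other pathway genes higher in GFP-positive cells fell from 7 to 4 with limma on either scale or at an adjusted p below 0.01, to 3 at a TPM limit of 5, and ranged from 4 to 7 with one library left out. Taken alone, *her4.3* differed by -2.50 against -0.91 for the her4 sum, and *her15.2* (-0.0944) and *her8.2* (-0.38) did not pass the test that their family sums passed. The her8 sum was nearly all *her8a*, at a mean of 71.15 of 73.77 TPM in GFP-positive cells, and so restates that gene. limma on TPM moved the median log2 fold change of all genes by -0.09 (log2(TPM + 1)) and -0.11 (log2(TPM + 0.1)), and the share of all calls that were higher in GFP-positive cells from 49.1% to 38.7% and 38.5%. On log2(TPM + 0.1) and log2(TPM + 1), small differences turned negative in *dll4* (-0.0121 and -0.0090), *jag1b* (-0.0463 and -0.0435), *numbl* (-0.1005 and -0.0905) and *notch1b* (-0.0891 and -0.0581), and on the first also in *notch2* (-0.0021). The cause was not tested.

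With one library left out, the log2 fold changes of *her5* (-0.20 to 0.19), *hey2* (-0.14 to 0.0146), *numbl* (-0.0681 to 0.0821), *notch1b* (-0.13 to 0.21) and *notchl* (-0.32 to 0.17), none of them called, crossed 0. Of the single-member values with one library left out, 248 kept direction and call, 8 turned direction, 9 lost and 5 gained a call.

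The paper states that peridermal and non-peridermal cells were both isolated in each replicate, and the main fit did not use this. Across genes, deviations from the population mean correlated at 0.0038, -0.0103 and -0.0022 between same-numbered libraries. Such correlations cannot show whether the libraries were paired. With the replicate block, 25 members were called as higher in GFP-negative and 3 as higher in GFP-positive cells, *dlc* missing the threshold (edgeR adjusted p = 0.0683), and 5073 and 4905 of all genes. The 3 sums were -0.91 for her4, -0.33 for her15 and -0.45 for her8. The depth of 40584467 to 49679602 counts leaves *mfng*, *notchl*, *heyl* and *rbpjl*, all under 1 TPM, without a usable comparison.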

Other observations

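Of 10 presomitic and paraxial markers, 3 were higher in GFP-negative and 4 in GFP-positive cells, or 30% and 40%, against 25.0% and 24.1% of all genes. Those higher in GFP-negative cells were T-box genes and *msgn1*: *tbx16* was at 5.80 to 7.02 TPM in GFP-positive and 17.2 to 18.4 TPM in GFP-negative libraries (log2 fold change -1.35 ± 0.07, SE), *msgn1* at 11.4 to 12.2 TPM against 22.7 to 24.8 TPM (-0.86 ± 0.09, SE) and *tbx6* at 18.1 to 21.3 TPM against 30.8 to 31.1 TPM (-0.56 ± 0.06, SE). Those higher in GFP-positive cells included *mespaa*, *mespab* and *ripply1*: *mespaa* was at 20 to 21.9 TPM against 8.03 to 10.8 TPM (1.22 ± 0.14, SE), *mespab* at 9.53 to 9.92 TPM against 5.35 to 6.61 TPM (0.79 ± 0.16, SE) and *ripply1* at 67.8 to 69.8 TPM against 40.6 to 42.7 TPM (0.83 ± 0.07, SE). The muscle determination gene *myod1* was at 60.6 to 66.7 TPM against 56.8 to 57.5 TPM (0.25 ± 0.07, SE). The other 3 markers were not called: *mespba* overlapped at 6 to 7.58 TPM against 4.32 to 6.46 TPM (0.42 ± 0.19, SE, edgeR adjusted p = 0.0755), *myf5* differed by -0.03 ± 0.07 (SE) and *meox1* by -0.04 ± 0.05 (SE).

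The 6 blood and endothelial markers showed no common direction. *gata1a*, the erythroid factor, was higher in GFP-positive cells at 28.9 to 30.7 TPM against 18.1 to 19.5 TPM (0.84 ± 0.08, SE), and *kdrl*, a receptor of the endothelium, was higher in GFP-negative cells at 4.61 to 6.55 TPM against 7.98 to 9.79 TPM (-0.52 ± 0.10, SE). *lmo2* was called towards GFP-negative cells (-0.23 ± 0.06, SE) and *tal1* towards GFP-positive cells (0.18 ± 0.06, SE), while *etv2* (0.13 ± 0.06, SE) and *fli1a* (-0.0032 ± 0.0639, SE) were not called.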
